A study of Mus musculus with 12 samples.

Results

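The mitochondrial genome of the mouse carries its own protein-coding genes, and 10 of them were followed here: mt-Nd1, mt-Nd2, mt-Nd4, mt-Nd5 and mt-Nd6 of complex I, mt-Cytb of complex III, mt-Co1, mt-Co2 and mt-Co3 of complex IV, and mt-Atp6 of complex V. They were chosen by symbol among the 55450 genes of the count table. Counts were present for 7 of the 10, and these 7 passed the filter on low counts, as did 17715 genes in all. The other 3 members, mt-Co2, mt-Co3 and mt-Atp6, had 0 counts in all 12 libraries, so nothing can be said of their level.

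The libraries came from growing mouse oocytes in 4 groups of 3. The groups were P14 Tbpl2-/- oocytes from secondary follicles, P14 WT oocytes from secondary follicles, P7 Tbpl2-/- oocytes from primary follicles and P7 WT oocytes from primary follicles, where P14 and P7 are days after birth. Tbpl2-/- (named KO and Tbp2 null or mutant in the sample labels) is a constitutive null allele of the gene for the oocyte-specific TBP paralogue TBPL2. Each library was made from polyadenylated RNA of a pool of 130 to 400 oocytes, freed by enzymes and picked by size, and labels do not say which animals a pool came from. The spread within a group is therefore that of pools, and p-values measure only that spread. Total counts ran from 31467610 to 48030724 per library. Tbpl2 itself had 75.3 to 83.3 normalised counts in P14 Tbpl2-/- libraries, against 1900.5 to 2442 in P14 WT libraries, and 75.2 to 117 in P7 Tbpl2-/- libraries, against 3027 to 3317 in P7 WT libraries.

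Mitochondrial DNA is transcribed by its own polymerase as long RNAs that run over most of a strand. These are cut at the tRNAs that lie between the genes, and the mRNAs released are given short poly(A) tails, which for several of them also complete the stop codon. The mRNAs are made into core subunits of the respiratory chain and the ATP synthase, which also need subunits encoded in the nucleus, and the growing oocyte multiplies its mitochondria while it enlarges. All members but mt-Nd6 are read from the same strand.

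The authors counted reads with a single place of alignment, and parts of the mitochondrial genome are repeated in the nucleus. The share of 50-base stretches (the read length) also found in another annotated transcript was 100% for mt-Co2 (MT, bases 7013 to 7696), 99.9% for mt-Co3 (bases 8607 to 9390) and 99.5% for mt-Atp6 (bases 7927 to 8607). These are the members at 0. The share was 62.2% for mt-Nd4 and 51.1% for mt-Co1, 8.19% for mt-Nd2 and 7.61% for mt-Nd5, and no stretch of mt-Nd1, mt-Nd6 or mt-Cytb was found elsewhere. The mRNA mt-Atp8 (bases 7766 to 7969), which is no member, also had 0 counts, and none of its stretches was found in another annotated transcript. It begins after mt-Co2 and runs into mt-Atp6. Their copies on chromosome 1, Gm28661 (bases 24614885 to 24615565) and Gm10925 (bases 24613974 to 24614651), are neighbours. Only annotated transcripts were searched, so a copy of mt-Atp8 in the bases between them could have been missed. The part of shared sequence in the missing counts was not tested.

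**Figure D1:**
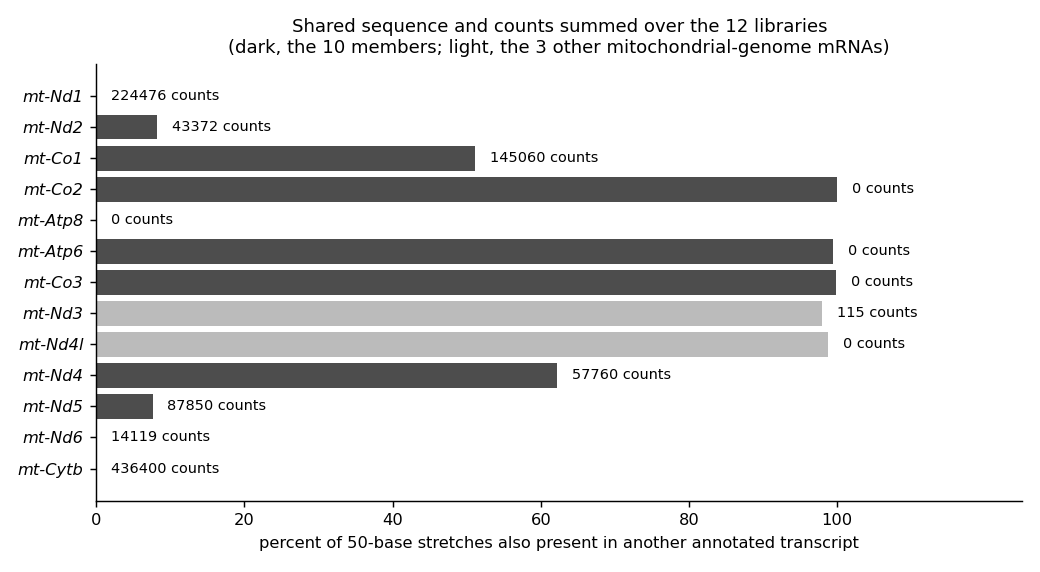
Percent of the 50-base stretches of each of the 13 mitochondrial-genome mRNAs that also occur in another annotated transcript (horizontal axis), with the counts summed over the 12 libraries beside each bar. The members mt-Co2, mt-Atp6 and mt-Co3 have nearly whole copies and 0 counts, whereas mt-Cytb has no copy in the annotation and 436400 counts. For mt-Atp8 no copy was found in annotated transcripts, the only ones searched, and it has 0 counts.

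Most of these copies lie in a run of unprocessed pseudogenes on chromosome 1 (GRCm38, minus strand, bases 24611535 to 24616197). There Gm28661 matched mt-Co2 over 681 bases, Gm10925 matched mt-Atp6 over 678 bases, Gm28437 matched mt-Co3 over 783 bases and Gm28439 matched the first 876 bases of mt-Nd4, each without a difference. Gm29216 matched bases 1054 to 1545 of mt-Co1 with 6 differences (98.8% identity). Gm28439 thus covers the 5′ part of mt-Nd4 and Gm29216 the 3′ part of mt-Co1. Gm28661, Gm10925, Gm28437 and Gm28439 themselves had 0 counts in all 12 libraries, and all pseudogenes with a shared stretch together had 0 to 54 counts per library.

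The stretch of mt-Co2 below (its bases 380 to 439) is shown with the same bases of Gm28661 on chromosome 1 and Gm13341 on chromosome 2, because it holds a copy that a read cannot tell apart and one that it can. Capitals mark the positions at which Gm13341 differs, and all sequences are from the GENCODE transcripts on GRCm38.
mt-Co2: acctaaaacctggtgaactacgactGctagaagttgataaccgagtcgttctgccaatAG
Gm28661: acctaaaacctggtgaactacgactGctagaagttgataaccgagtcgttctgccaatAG
Gm13341: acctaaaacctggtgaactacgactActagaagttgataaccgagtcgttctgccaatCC
A member that was counted in part, mt-Co1, is shown over its bases 28 to 87 with the same bases of Gm13340 on chromosome 2, with the 3 differences in capitals.
mt-Co1: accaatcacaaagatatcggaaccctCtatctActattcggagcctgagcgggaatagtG
Gm13340: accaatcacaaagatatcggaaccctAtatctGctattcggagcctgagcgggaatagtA

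The libraries captured RNA by its poly(A) tail, so the 3′ ends of 4 members are shown as well, over their last 30 bases, with what the gene holds of its last codon in capitals. The genes for mt-Cytb, mt-Nd4 and mt-Co3 end after the first base of the stop codon, which the tail completes, whereas mt-Co1 carries a whole one.
mt-Cytb: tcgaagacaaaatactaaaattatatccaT
mt-Nd4: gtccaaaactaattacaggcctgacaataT
mt-Co3: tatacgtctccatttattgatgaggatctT
mt-Co1: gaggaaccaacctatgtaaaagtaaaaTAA

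Levels are given as normalised counts, which are the authors' counts divided by a factor for each library. They are relative to the rest of the library, so a lower level need not be less RNA per oocyte. Members were compared with each other per kb of countable sequence, the number of stretches found in no other annotated transcript, a scale that was added after the counts had been seen. On it mt-Cytb, the cytochrome b of complex III, was the highest member in all 12 libraries, at 8978 ± 918 normalised counts per countable kb in P14 Tbpl2-/-, against 7793 ± 3231 in P14 WT, and 28111 ± 3476 in P7 Tbpl2-/-, against 89285 ± 34501 in P7 WT (mean ± SD, n = 3 each, as for all group values below). The lowest was mt-Nd6, the member read from the opposite strand, at 600.4 ± 138 in P14 Tbpl2-/-, against 460.1 ± 269 in P14 WT, and 2449 ± 453 in P7 Tbpl2-/-, against 6619 ± 2904 in P7 WT. Without strand, reads of mt-Nd6 cannot be told apart from antisense RNA of the same bases.

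At P7 the order per countable kb was the same in both genotypes: mt-Cytb, mt-Nd1, mt-Co1, mt-Nd4, mt-Nd5, mt-Nd2, mt-Nd6. Each stood above the next in 3 of 3 libraries of either group, except that mt-Nd5 stood above mt-Nd2 in 2 of 3 P7 WT libraries. At P14 the neighbours mt-Nd5 and mt-Nd2 kept the same order in 2 of 3 Tbpl2-/- libraries and had the other order in 1 of 3 WT libraries. On this scale the place of mt-Co1, the catalytic subunit of complex IV, differed between the P14 groups. Per kb of transcript length, the scale planned at first, it did not: mt-Co1 had rank 3 in all 4 groups. There it stood at 2170 ± 795 in P14 Tbpl2-/- and 912 ± 480 in P14 WT. Per countable kb, mt-Co1 came after mt-Cytb in P14 Tbpl2-/- at 4586 ± 1680 normalised counts, above mt-Nd1 in 2 of 3 libraries. In P14 WT it came after mt-Nd4 at 1927 ± 1015 per countable kb, below mt-Nd4 in 2 of 3 libraries.

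**Figure D2:**
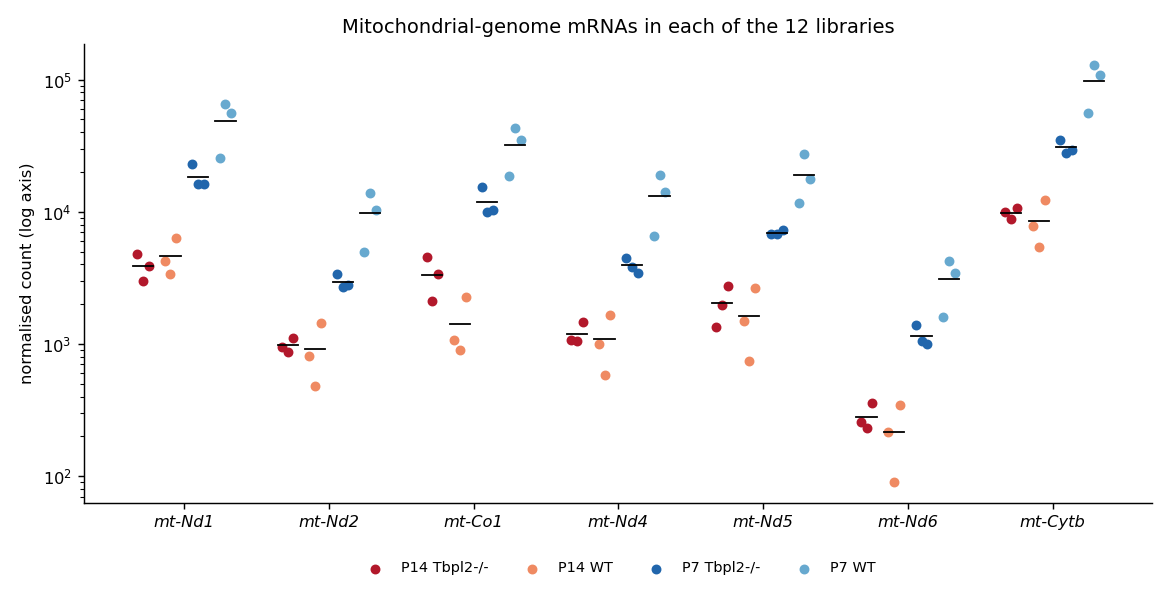
Normalised counts (vertical log axis) of the 7 counted members in each of the 12 libraries, coloured by group, with the group mean as a bar. For every member the 3 P7 WT libraries are the highest, the 3 P7 Tbpl2-/- libraries come next and the P14 libraries lie below them.

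The summed counts of the members were a small part of each library. They were 0.0678%, 0.0541% and 0.0706% of all counts in P14 Tbpl2-/- replicates 1, 2 and 3, against 0.0369%, 0.0244% and 0.062% in P14 WT replicates 1, 2 and 3. They were 0.272%, 0.200% and 0.213% in P7 Tbpl2-/- replicates, against 0.294%, 0.753% and 0.606% in P7 WT replicates. The 95% Wilson intervals were at most 0.0054 percentage points wide, which covers counting error only, since amplified reads without molecular identifiers are not independent molecules. The P7 groups did not overlap, and the P14 groups did. As normalised counts the sum was 21559 ± 3080 in P14 Tbpl2-/-, against 18452 ± 7919 in P14 WT, and 76110 ± 11546 in P7 Tbpl2-/-, against 223993 ± 90658 in P7 WT. In bulk samples, fewer cells of a type and less RNA per cell cannot be told apart.

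In primary follicle oocytes the mRNAs were lower in Tbpl2-/-. At P7, mt-Cytb had 35083, 27848 and 29414 normalised counts in Tbpl2-/- replicates 1, 2 and 3, against 55960, 129457 and 107883 in WT replicates 1, 2 and 3. The groups did not overlap, and WT replicate 1 lay nearest to the Tbpl2-/- libraries. It fell by 1.65 ± 0.33 on the log2 scale (SE; adjusted p = 0.00123, edgeR's quasi-likelihood test with Benjamini-Hochberg adjustment over all tested genes, as for every adjusted p below). Of the complex I members, mt-Nd1 had 22862, 16254 and 16312 normalised counts in P7 Tbpl2-/-, against 25516, 65514 and 55800 in P7 WT. Here replicate 1 of Tbpl2-/- and replicate 1 of WT lay close to each other, with the other libraries well apart, and the log2 fold change was −1.39 ± 0.35 (adjusted p = 0.00558).

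The same held for the subunit at the catalytic core of complex IV, mt-Co1, which had 15342, 9974 and 10301 normalised counts in P7 Tbpl2-/-, against 18617, 43238 and 34874 in P7 WT. It fell by 1.42 ± 0.43 on the log2 scale (adjusted p = 0.0163). The proton-pumping subunits mt-Nd2 and mt-Nd4 had the most negative log2 fold changes among the members, −1.70 ± 0.42 and −1.74 ± 0.42 (adjusted p = 0.00525 and 0.00515). Their means were 2954 ± 367 and 3928 ± 525 normalised counts in P7 Tbpl2-/-, against 9750 ± 4470 and 13255 ± 6263 in P7 WT. For mt-Nd5 the levels were 6947 ± 268 in P7 Tbpl2-/- and 18925 ± 7924 in P7 WT (a log2 fold change of −1.43 ± 0.45, adjusted p = 0.0206), and for mt-Nd6 they were 1151 ± 213 and 3111 ± 1365 (a log2 fold change of −1.42 ± 0.44, adjusted p = 0.0174).

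In all, 7 of 7 tested members were lower in P7 Tbpl2-/- oocytes, none was higher and for none did the groups overlap. Over all 17715 tested genes 28.9% were called lower and 30.5% higher in this comparison, and for 31.1% the P7 Tbpl2-/- libraries lay wholly below those of P7 WT. The median log2 fold change was −1.43 for the members and 0.015 for all tested genes. The count of 7 became 4 when either P7 WT replicate 2, P7 WT replicate 3, P7 Tbpl2-/- replicate 2 or P7 Tbpl2-/- replicate 3 was left out, and 4 without the filter on low counts: mt-Co1, mt-Nd5 and mt-Nd6 then stood above the threshold, with the sign kept. Scaled by library size alone, which has 66.1% of all calls higher in place of 51.4%, the log2 fold changes remained negative and mt-Nd5 no longer passed (−1.16, adjusted p = 0.0531).

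In secondary follicle oocytes most of the members did not differ between genotypes beyond the spread of the libraries. At P14, mt-Cytb had 9979, 8759 and 10754 normalised counts in Tbpl2-/-, against 7865, 5379 and 12358 in WT, and the log2 fold change was 0.22 ± 0.32 (adjusted p = 0.583). Likewise mt-Nd1 had 4772, 3018 and 3887 in P14 Tbpl2-/-, against 4236, 3383 and 6359 in P14 WT, with a log2 fold change of −0.24 ± 0.34 (adjusted p = 0.574). The WT libraries span the Tbpl2-/- libraries for mt-Cytb, with replicate 2 lowest and replicate 3 highest. For mt-Nd2, mt-Nd4, mt-Nd5 and mt-Nd6 the log2 fold changes were 0.11 ± 0.41, 0.16 ± 0.42, 0.33 ± 0.45 and 0.40 ± 0.46, and their adjusted p-values ran from 0.489 to 0.837.

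The exception was mt-Co1. It had 4566, 2110 and 3381 normalised counts in P14 Tbpl2-/- replicates 1, 2 and 3, against 1071, 895.5 and 2259 in P14 WT replicates 1, 2 and 3. The highest WT library stood above the lowest Tbpl2-/- library, so the groups overlapped. The difference of 1.26 ± 0.44 on the log2 scale passed the test (adjusted p = 0.0301). This made 1 of 7 members higher and none lower in P14 Tbpl2-/- oocytes, where 29.9% of all tested genes were called higher and 27.8% lower. The median log2 fold change was 0.22 for the members and 0.066 for all tested genes. Only part of mt-Co1 could be counted: 51.1% of its stretches occur in another annotated transcript, many within its bases 1054 to 1545 at the 3′ end. Whether reads lie along the mRNA in the same way in all libraries was not tested, here or for its other changes.

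The mt-Co1 call at P14 was lost, with the sign kept, without P14 WT replicate 1 (1.09, adjusted p = 0.0996), P14 WT replicate 2 (1.02, adjusted p = 0.096), P14 Tbpl2-/- replicate 1 (1.01, adjusted p = 0.106), P14 Tbpl2-/- replicate 3 (1.30, adjusted p = 0.0674) or P7 WT replicate 3 (1.26, adjusted p = 0.0525). By library size alone 73.6% of all calls at P14 were higher, in place of 51.8%, and mt-Nd1 turned to 0.16.

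Between the stages the members fell in WT, relative to the rest of the library, more than in any other comparison. For mt-Cytb the levels were 8534 ± 3537 normalised counts in P14 WT and 97767 ± 37778 in P7 WT, a log2 fold change of −3.51 ± 0.35 (11.4-fold lower, adjusted p = 2.56e-05). For mt-Nd1 they were 4659 ± 1532 in P14 WT and 48943 ± 20862 in P7 WT, a log2 fold change of −3.39 ± 0.38 (adjusted p = 5.28e-05). The largest fall was that of mt-Co1, with 1409 ± 742 in P14 WT and 32243 ± 12520 in P7 WT; it fell by 4.51 ± 0.49 on the log2 scale (22.8-fold lower, adjusted p = 6.09e-05). The log2 fold changes of mt-Nd2, mt-Nd4, mt-Nd5 and mt-Nd6 lay between −3.83 and −3.40. All 7 were lower, and the highest P14 WT library lay below the lowest P7 WT library for each. Of all tested genes 23.4% were called lower and 26.8% higher, and 26.8% lay wholly below in P14 WT. Their median log2 fold change was 0.026, against −3.53 for the members. The 7 calls held without any one of the 12 libraries.

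In Tbpl2-/- oocytes the fall between the stages was smaller. There mt-Cytb had 9831 ± 1005 normalised counts at P14 and 30782 ± 3807 at P7, a log2 fold change of −1.64 ± 0.33 (3.12-fold lower, adjusted p = 0.00318). For mt-Nd1 the levels were 3892 ± 877 at P14 and 18476 ± 3798 at P7, a log2 fold change of −2.24 ± 0.36, the largest of the 7 (adjusted p = 0.00088). For mt-Co1 they were 3352 ± 1228 at P14 and 11872 ± 3009 at P7, a log2 fold change of −1.82 ± 0.44 (adjusted p = 0.00997). All 7 members were lower at P14, with no overlap between groups, where 15.3% of all tested genes were called lower and 18.4% higher and 24.1% lay wholly below at P14. The median was −1.77 for the members and 0.023 for all tested genes. Without P14 Tbpl2-/- replicate 2 the count was 4, with mt-Nd2, mt-Nd4 and mt-Nd5 at adjusted p-values of 0.0624, 0.0509 and 0.055.

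**Figure D3:**
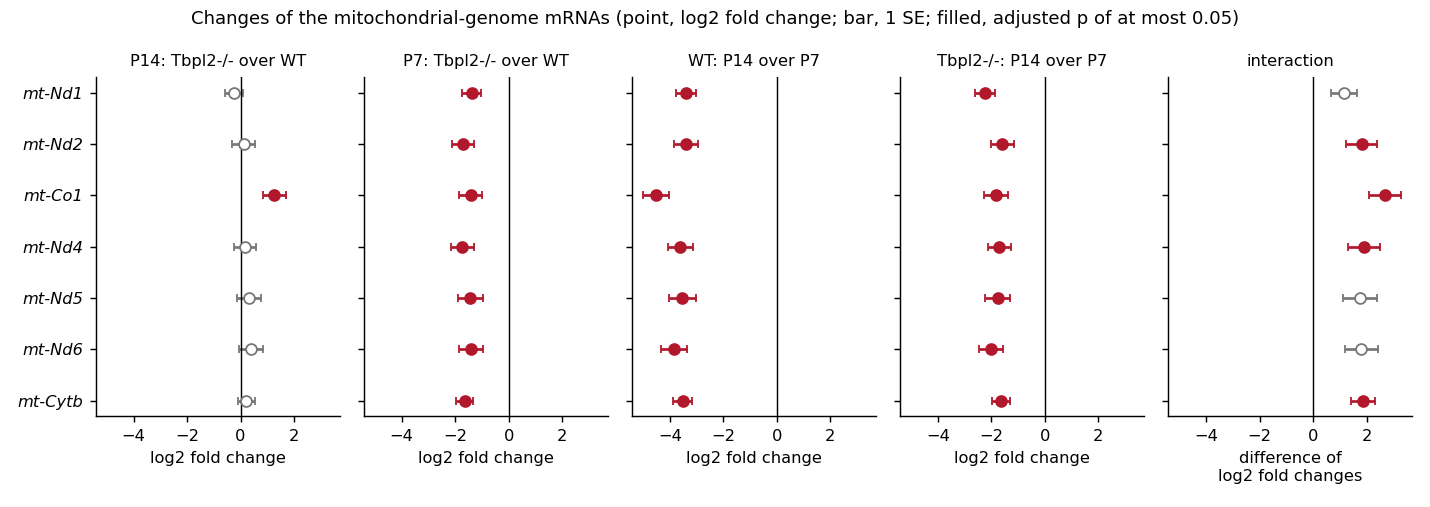
Log2 fold change (horizontal axis, bar of 1 SE) of each counted member in the 4 comparisons, and the difference of the genotype effects in the last panel; filled points passed at an adjusted p of at most 0.05. The points lie left of 0 for all members at P7 and between the stages, and only mt-Co1 is filled at P14.

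Whether the genotype difference itself changed with stage was tested as an interaction, the log2 fold change at P14 minus that at P7. It was positive for all 7 members and passed for 4. It was 2.69 ± 0.61 for mt-Co1 (adjusted p = 0.011), 1.87 ± 0.46 for mt-Cytb (adjusted p = 0.0131), 1.89 ± 0.59 for mt-Nd4 (adjusted p = 0.0384) and 1.82 ± 0.58 for mt-Nd2 (adjusted p = 0.0428). It did not pass for mt-Nd6 (1.81 ± 0.63, adjusted p = 0.0566), mt-Nd5 (1.76 ± 0.64, adjusted p = 0.0665) and mt-Nd1 (1.14 ± 0.49, adjusted p = 0.105). Of all tested genes 13.6% were called positive and 14.3% negative. With DESeq2 all 7 passed, and without P14 WT replicate 3 all 7 passed. The count was 2, with mt-Co1 and mt-Cytb, when any one of 10 other libraries was left out: P14 WT replicate 1 or 2, any P14 or P7 Tbpl2-/- replicate, or P7 WT replicate 2 or 3.

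The make-up of the members' counts differed between the P14 groups for mt-Co1 and mt-Nd1, whose shares did not overlap there. The share of mt-Co1 was 19.9%, 11.7% and 14.3% of the summed members in P14 Tbpl2-/- replicates 1, 2 and 3, against 6.42%, 7.75% and 8.34% in P14 WT replicates 1, 2 and 3. In the P7 libraries it ran from 14.6% to 17.2% in Tbpl2-/- and from 14.3% to 14.9% in WT. The 3 P14 WT libraries were thus the lowest of the 12. Only part of mt-Co1 was counted, and the part of coverage along the mRNA in its share was not tested. The share of mt-Nd1 was 20.8%, 16.7% and 16.4% in P14 Tbpl2-/- and 25.4%, 29.3% and 23.5% in P14 WT, the reverse order. The share of mt-Cytb was 43.5% to 48.6% in P14 Tbpl2-/-, against 45.6% to 47.1% in P14 WT, and 39.2% to 41.7% in P7 Tbpl2-/-, against 42.8% to 44.8% in P7 WT. The share of mt-Nd5 ran from 5.83% to 11.6%, both within P14 Tbpl2-/-, and that of mt-Nd6 from 0.785% in P14 WT to 1.56% in P7 Tbpl2-/-. These shares depend on one another and were not tested. Beside them, the fit scaled to the summed members gave mt-Co1 a log2 fold change of 1.03 at P14 (adjusted p = 0.0913) and of −0.95 between P14 WT and P7 WT (adjusted p = 0.0455). That fit divides mt-Co1 by a sum that holds mt-Co1. It also called 17176 of 17715 genes between P14 WT and P7 WT, so the adjustment changed little there. These values are no test of the make-up.

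**Figure D4:**
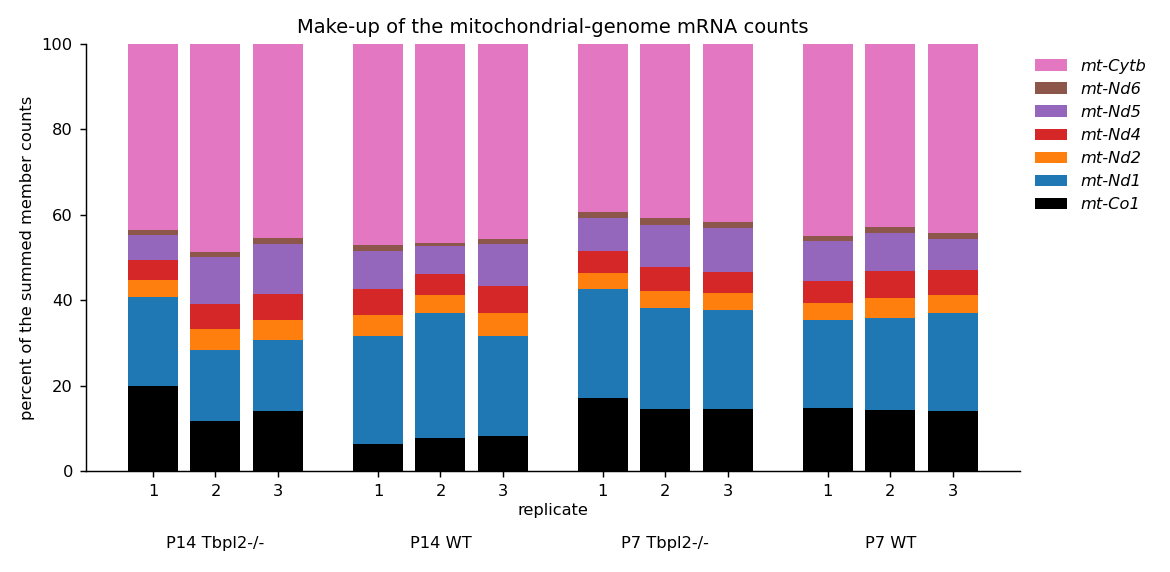
Share of each member in the summed member counts (vertical axis, percent) in each library, by group and replicate. The black segment, mt-Co1, is 6.42% to 8.34% in P14 WT and 11.7% to 19.9% in the other libraries.

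Within a group the members moved together from library to library. Over the 12 libraries, the deviations from the group means on the log2 scale correlated with r of 0.601 to 0.996 between the 21 pairs of members, with a median of 0.907. These points share their library and its scaling factor. The spread was wider in WT. From the lowest to the highest library mt-Cytb differed 1.23-fold in P14 Tbpl2-/-, 2.30-fold in P14 WT, 1.26-fold in P7 Tbpl2-/- and 2.31-fold in P7 WT. For mt-Nd6 these ratios were 1.53, 3.79, 1.38 and 2.66. The low library was replicate 2 in P14 WT and replicate 1 in P7 WT for each of the 7 members. Both had the least RNA of their groups, 2.6 ng against 5.1 and 7.3 ng in P14 WT, and 5.0 ng against 5.9 and 8.2 ng in P7 WT. The order was otherwise in Tbpl2-/-, where P7 replicate 1 had the least RNA (3.6 ng) and the highest summed members. At P14, Tbpl2-/- replicate 2 had the lowest sum at 6.2 ng, against 2.8 and 11.3 ng. The part of RNA input was not tested.

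Of the remaining genes of the mitochondrial genome, the ribosomal RNAs followed the members in part. The RNA of the large ribosomal subunit, mt-Rnr2, had 168 ± 33.4 normalised counts in P14 Tbpl2-/-, against 103 ± 31.5 in P14 WT, and 398 ± 144 in P7 Tbpl2-/-, against 1263 ± 543 in P7 WT. It was lower in P7 Tbpl2-/- than in P7 WT (−1.65 ± 0.35, adjusted p = 0.00147) and had an interaction of 2.37 ± 0.52 (adjusted p = 0.00652). The RNA of the small subunit, mt-Rnr1, was lower in P7 Tbpl2-/- as well (−2.72 ± 0.49, adjusted p = 0.000234), but between P14 and P7 in Tbpl2-/- its log2 fold change was 0.20 ± 0.51 (adjusted p = 0.791). Its levels were low, at 27.5 ± 13.7 in P14 Tbpl2-/- and 24.1 ± 8.93 in P7 Tbpl2-/-. The 22 tRNA genes had 843 counts in the 12 libraries together. The mRNAs mt-Nd3 and mt-Nd4l, which share 98% and 98.8% of their stretches, had 115 and 0 counts in all.

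Nuclear genes for making mitochondrial RNA are given beside the shares of all tested genes above, 29.9% higher and 27.8% lower at P14 and 30.5% and 28.9% at P7. The list of mitochondrial transcription held 11 tested genes, of which 4 were higher and 5 lower in P14 Tbpl2-/- and 5 were higher and 5 lower in P7 Tbpl2-/-. The 5 lower at P14 became 3 without P14 Tbpl2-/- replicate 2 or 3 or P14 WT replicate 1 or 2. Tfam, which packages mitochondrial DNA and starts its transcription, had 2587 ± 161 normalised counts in P14 Tbpl2-/- and 4884 ± 192 in P14 WT (a log2 fold change of −0.90, adjusted p = 2.15e-06), and it was lower at P7 too (−0.48, adjusted p = 0.000792). Polrmt, the mitochondrial RNA polymerase, was higher in Tbpl2-/- by 0.51 at P14 and 0.28 at P7 (adjusted p = 0.000379 and 0.0229). For Tfb2m, which helps the polymerase open the promoter, the values were −0.19 and −0.23 and did not pass. The elongation factor gene Tefm was higher by 1.01 and 0.99, and Top1mt, the mitochondrial topoisomerase, was higher by 4.04 at P14. Mterf3, known in mouse as a repressor of mitochondrial transcription, was lower at both stages (log2 fold changes of −0.73 at P14 and −1.09 at P7).

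Between P14 and P7 in WT, where the members fell most, 1 of these 11 was lower and none higher (2 lower without P14 WT replicate 2, and none without P14 WT replicate 3 or P7 WT replicate 2). Tfam and Polrmt had log2 fold changes of 0.15 and 0.14 there (adjusted p = 0.231 and 0.241).

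Of the genes for processing and stabilising mitochondrial RNA, 12 of 26 tested were higher and 4 lower in P14 Tbpl2-/-, and 10 were higher and 4 lower in P7 Tbpl2-/-. Lrpprc, whose protein keeps mitochondrial mRNAs stable and polyadenylated, was higher in P7 Tbpl2-/- (1.00, adjusted p = 8.82e-05) and had −0.24 at P14 (adjusted p = 0.22). Its partner Slirp had −0.61 at P7 (adjusted p = 0.0665) and was higher at P14 (0.92, adjusted p = 0.0119). The interaction passed for both, at −1.24 for Lrpprc (adjusted p = 0.00203) and 1.53 for Slirp (adjusted p = 0.0111). Mtpap, the mitochondrial poly(A) polymerase, was lower at both stages (−1.23 at P14 and −0.54 at P7), while Fastk, which has a mitochondrial form needed for the ND6 mRNA, was higher by 1.39 and 1.71. Rcc1l was higher by 1.33 at P14 and 0.59 at P7, and Ptcd2 by 0.92 and 1.34.

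For copying mitochondrial DNA, 6 of 16 tested genes were higher and 6 lower in P14 Tbpl2-/-, and 7 were higher and 3 lower in P7 Tbpl2-/-, where all tested genes had 29.9% and 27.8% at P14 and 30.5% and 28.9% at P7. Twnk, the replicative helicase, had 915 normalised counts in P14 Tbpl2-/-, against 3677 in P14 WT, and was lower at both stages, with log2 fold changes of −1.98 at P14 and −1.76 at P7 (adjusted p = 2.31e-09 and 5.9e-09). Polg, the DNA polymerase, was higher by 0.43 and 1.50, and Rrm2b, a subunit of the ribonucleotide reductase of resting cells, was lower (−1.46 and −1.06). Of 12 genes for regulators, 6 were higher and 2 lower at P14 and 6 higher and 5 lower at P7, and without one library at a time the number lower at P14 ran from 1 to 3. Tfeb, a regulator of lysosomal genes, was higher by 2.23 and 1.43, and the orphan receptor gene Esrrb was lower (−0.98 and −2.18).

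The nuclear subunits of the complexes that the members belong to were set beside them, and no test compared the sets. Of all tested genes, 29.9% were higher and 27.8% lower in P14 Tbpl2-/-, and 30.5% and 28.9% in P7 Tbpl2-/-. In the interaction 13.6% were called positive and 14.3% negative. Of 72 tested subunits of complexes I, III, IV and V, 52 were higher and 1 lower in P14 Tbpl2-/-, with a median log2 fold change of 0.64, against 0.22 for the members. In P7 Tbpl2-/-, where 7 of 7 members were lower, 18 of the 72 were higher and 20 lower, with a median of −0.15, against −1.43 for the members. The 20 lower became 9 without P7 Tbpl2-/- replicate 2 or P7 WT replicate 3, 10 without P7 WT replicate 2 and 13 without P7 Tbpl2-/- replicate 3. Scaled by library size alone, 21 of the 72 were higher and 7 lower at P7. The interaction was positive and passed for 43 of the 72 and negative for 4, with a median of 0.89, against 1.82 for the members, and 28 were positive without P7 WT replicate 3. Among those higher at both stages were Cyc1, the cytochrome c1 of complex III (2.16 at P14 and 1.58 at P7), its core subunit Uqcrc1 (1.74 and 1.43), the iron-sulphur subunit Ndufs8 of complex I (1.36 and 0.68) and Atp5d of the ATP synthase (1.27 and 0.97). Ndufc1 was higher by 1.51 and 0.70, Ndufs1 by 0.67 and 1.51, and Atp5f1 by 1.07 and 0.82. Of the nuclear subunits of complex IV, 6 of 11 were lower and none higher at P7, and the number called ran from 3 without P7 WT replicate 2 to 8 without P7 WT replicate 1. Cox7c (−1.05) and Cox5b (−0.88) were among them, and neither passed at P14. Cox6a1 and Cox4i1 were higher at P14 only by this test (0.99 and 0.84), and their interactions of 1.11 and 0.89 passed. Atp5e was lower at P7 (−0.83, adjusted p = 0.0125).

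With age the nuclear subunits fell with the members. Between P14 and P7 in WT, 66 of 72 were lower and 1 higher, with a median of −1.27, and in Tbpl2-/- 29 were lower and none higher, with a median of −0.42. The 29 became 19 without P14 Tbpl2-/- replicate 2, 17 without P14 Tbpl2-/- replicate 3 and 18 without P7 Tbpl2-/- replicate 1. The median of the members was −3.53 in WT and −1.77 in Tbpl2-/-. Of all tested genes, 23.4% were lower and 26.8% higher at P14 in WT, with a median of 0.026. In Tbpl2-/- these were 15.3% and 18.4%, with a median of 0.023. Complex II, which has no subunit from the mitochondrial genome, had 2 of 4 genes lower and 2 higher in WT, and at most 1 was higher without any one library. Its subunit gene Sdhb was higher in Tbpl2-/- by 1.34 at P14 and 0.82 at P7, Sdhc by 0.56 at P14, and Sdha by 0.35 and 0.99.

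**Figure D5:**
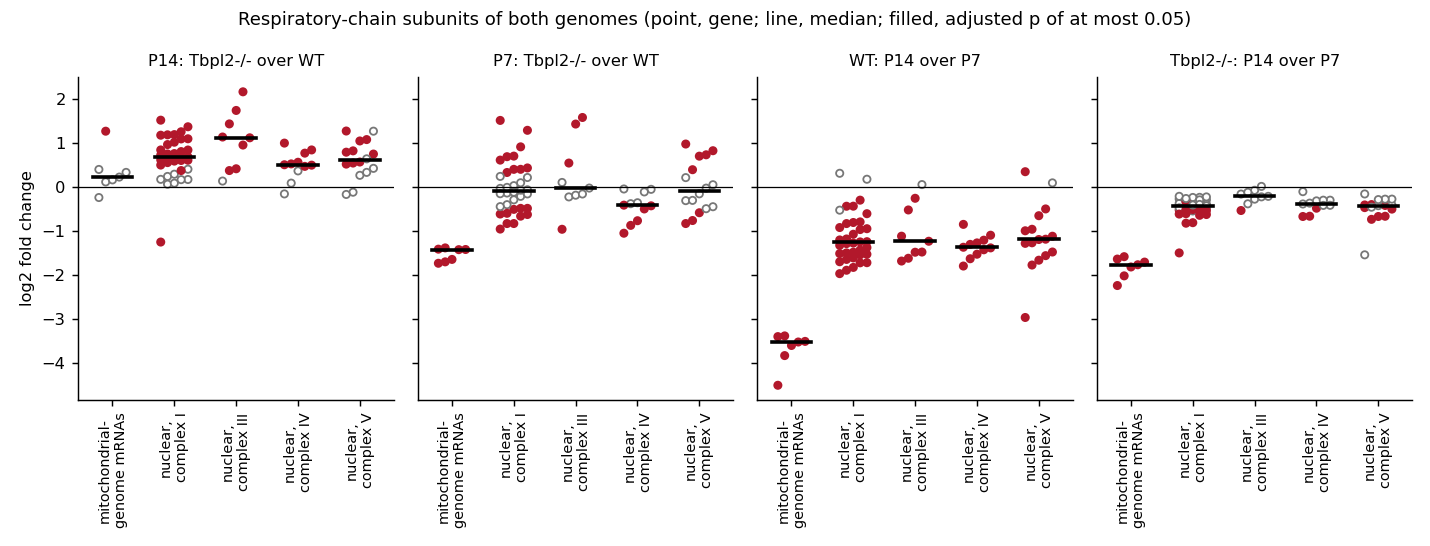
Log2 fold changes (vertical axis) of the 7 counted members and of the nuclear subunits of complexes I, III, IV and V in the 4 comparisons; each point is a gene, filled at an adjusted p of at most 0.05, and the line is the median. In the P7 genotype panel the members lie together near −1.43 while the nuclear subunits spread around 0.

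Beside the members, some markers of somatic cells differed between the groups, though not all in the same direction. Their counts stand beside the shares of all tested genes: 29.9% higher and 27.8% lower in P14 Tbpl2-/-, and 30.5% and 28.9% in P7 Tbpl2-/-. From P7 to P14 these shares were 26.8% higher and 23.4% lower in WT, and 18.4% and 15.3% in Tbpl2-/-. Of 18 tested granulosa cell markers, 14 were lower and none higher in P7 Tbpl2-/-, and their summed level was 2653 to 3307 normalised counts in P7 Tbpl2-/- libraries, against 5273 to 6561 in P7 WT libraries. Of the defining ones, Amh had 4.87 and Foxl2 17.8 normalised counts on average in P7 Tbpl2-/-, against 59.5 and 83.5 in P7 WT. At P14, where 2 were higher and 4 lower, the sum was 6244 to 6845 in Tbpl2-/- and 7591 to 8129 in WT. In WT the sum was higher at P14 than at P7, but 9 of the 18 were lower at P14 and 4 higher. Among those lower were Inhbb (−3.50), Hsd17b1 (−2.01), Wt1 (−1.34) and Foxl2 (−1.32). In Tbpl2-/-, 9 were higher and 1 lower at P14. Part of this list, such as Esr2 and Nr5a2, was at high levels in all libraries. Theca and stromal markers summed to 134 to 222 in all 12 libraries, with Lum at 0 in all but P14 WT libraries. Of 5 tested, 1 was higher and 1 lower in P14 Tbpl2-/-, and 2 were higher and 1 lower in P7 Tbpl2-/-. Dcn had 74.0 normalised counts on average in P7 Tbpl2-/-, against 3.74 in P7 WT, and Nr2f2 14.2, against 88.1. Of the blood, immune and endothelial list, 4 of 12 genes were tested, and the haemoglobin genes were at or near 0. Its sum was 533 to 703 in P14 Tbpl2-/-, against 2199 to 2936 in P14 WT, and 212 to 263 in P7 Tbpl2-/-, against 756 to 1304 in P7 WT, most of it from Pecam1 in all groups but P7 Tbpl2-/-. Of the tested genes of this list, 1 was higher and 1 lower in P14 Tbpl2-/-, and 1 was lower and none higher in P7 Tbpl2-/-. Pecam1 had 439 normalised counts on average in P14 Tbpl2-/-, against 2491 in P14 WT. Kdr had 94.2, against 49.8, and Cdh5 was near 0 in all groups. The part of somatic cells in the members' levels was not tested.

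The oocyte markers that identify the cells were present in all libraries, with a sum of 221895 to 274674 normalised counts in P14 Tbpl2-/-, against 657004 to 801194 in P14 WT, and 262723 to 280300 in P7 Tbpl2-/-, against 751143 to 795966 in P7 WT. Zp3 and Gdf9 made most of the sum, and the paper describes Gdf9 as regulated by TBPL2, so the sum is no measure of oocyte content. Of 10 tested oocyte markers, 3 were higher and 5 lower in P14 Tbpl2-/-, and 3 were higher and 4 lower in P7 Tbpl2-/-. For these and the immediate-early genes below, the shares of all tested genes were 29.9% higher and 27.8% lower at P14, and 30.5% and 28.9% at P7. Sohlh1 had 5759 normalised counts on average in P14 Tbpl2-/-, against 318 in P14 WT, and 10224 in P7 Tbpl2-/-, against 1442 in P7 WT. Immediate-early genes, which answer to handling, summed to 5205 to 5950 in P14 Tbpl2-/-, against 8509 to 9986 in P14 WT. The sum was 2891 to 4659 in P7 Tbpl2-/-, against 7695 to 9035 in P7 WT. Dusp1 and Egr1 made most of the WT sums. Of 11 tested, 5 were higher and 4 lower in P14 Tbpl2-/-, and 5 higher and 5 lower in P7 Tbpl2-/-. Mean normalised counts of Dusp1 were 647 in P14 Tbpl2-/-, against 5096 in P14 WT, and those of Fos 210, against 23.5. The part of immediate-early genes was not tested either.

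The nuclear genes whose level followed the summed members most closely over the 12 libraries, among 10714 with a mean above 100 normalised counts, were Acin1 (r = 0.988), Ptma (r = 0.987), Dr1 (r = 0.978), Mmd (r = 0.977) and Cdc123 (r = 0.977). The median r of these genes was −0.069. Ptma, which encodes prothymosin alpha, had 145 normalised counts in P14 Tbpl2-/-, against 117 in P14 WT, and 299 in P7 Tbpl2-/-, against 513 in P7 WT, the same order of groups as the sum of the members. By their deviations from the group means the closest were Tmem14a (r = 0.911), Rbm8a (r = 0.909), Cyct (r = 0.905), Hey1 (r = 0.904) and Wfdc15a (r = 0.903). Cyct encodes the testis form of cytochrome c. Both sets were picked as the highest of 10714 over 12 points that share libraries, and they are given as a description.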

How the data were processed

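No reads were aligned here. Per the labels and the study's methods, the authors trimmed single 50-base reads, removed spike reads, aligned to mm10 with STAR 2.7.0f and counted uniquely aligned reads per gene with HTSeq 0.9.1 in union mode. The strand setting was not given in the sources used here. The deposited counts are whole numbers per gene and library. The deposited signal is the normalised count, which the authors obtained by median-of-ratios scaling with DESeq2 1.22.2 under R 3.5.3. The deposited table also holds the authors' comparisons (log2 fold changes, the score of a Wald test, and p-value columns), and these were not used.

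Counts were fitted with edgeR 4.0.16 under R 4.3.3 (robust quasi-likelihood, TMM factors, filterByExpr, two-sided F test), with 4 group means over 12 libraries and 5 contrasts, with Benjamini-Hochberg adjustment over 17715 genes. A gene was called at an adjusted p of at most 0.05 at any fold change. The standard error of a log2 fold change was taken as its size over the root of F. Alternatives were DESeq2 1.42.0, other scalings, no filter, fewer libraries and a replicate block. Shared sequence was searched as exact 50-base stretches, both strands, in the GENCODE transcripts of GRCm38. A genome sequence was not used here, so copies outside annotated transcripts were not searched. Tables and figures were made with Python 3.11.15 and matplotlib 3.10.9.

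The members and the gene lists were chosen with earlier results of these data known, so no list is independent evidence. Named genes are all 10 members, 8 nuclear genes for mitochondrial RNA and DNA named in any case (Polrmt, Tfam, Tfb2m, Lrpprc, Slirp, Mtpap, Polg, Twnk), the 2 called genes of each list with the largest change in each genotype comparison and a mean above 100 normalised counts, and the 5 genes closest to the summed members by each measure. A gene named by this rule is not reported here. Other genes named (cell markers and the remaining genes of the mitochondrial genome) are given as group values. The main fit did not pair libraries by replicate number, and labels do not say whether libraries of the same number belong together (see the closing section).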

Additional observations from a re-analysis of the deposited data

Results flagged for a closer look

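The genotype difference of 4 members at P14 was not the same as at P7 by the test of the interaction. The difference between the stages was 2.69 for mt-Co1 (adjusted p = 0.011, edgeR), 1.87 for mt-Cytb (adjusted p = 0.0131), 1.89 for mt-Nd4 (adjusted p = 0.0384) and 1.82 for mt-Nd2 (adjusted p = 0.0428), each as the log2 fold change at P14 minus that at P7. For mt-Co1 the fold change was positive at P14 (1.26) and negative at P7 (−1.42). For mt-Cytb, mt-Nd4 and mt-Nd2 it was negative at P7 and 0.22, 0.16 and 0.11 at P14, where it did not pass. The calls of mt-Nd4 and mt-Nd2 were lost without any one of 10 libraries.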

How the results depend on the processing

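The fall of 7 members between P14 WT and P7 WT passed in every alternative except the scaling to the summed members, which by its construction sets their average change near 0 and left 1 call (mt-Co1) there and 0 in the other comparisons. Without one library at a time the calls ran from 0 to 1 at P14, from 4 to 7 at P7, from 4 to 7 between the stages in Tbpl2-/- and from 2 to 7 for the interaction. Without the filter on low counts they were 0 at P14, 4 at P7 and 2 for the interaction. With only the 6 libraries of the comparison the P14 count was 0 (mt-Co1, 1.27, adjusted p = 0.0551), and DESeq2 gave 7 for the interaction. The interaction could not be fitted on 6 libraries. The causes were not tested.

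Signs turned for P14 values near 0 and under the scaling to the summed members. At P14 mt-Nd1 was 0.16 by library size alone. Over the fits that leave out a library, the P14 log2 fold changes ran from −0.44 to 0.049 for mt-Nd1, from −0.20 to 0.61 for mt-Nd2, from −0.15 to 0.62 for mt-Nd4, from −0.025 to 0.87 for mt-Nd5 and from −0.031 to 0.59 for mt-Cytb, with the highest values without P14 WT replicate 3 and the lowest without P14 WT replicate 2. Scaled to the summed members, mt-Nd2, mt-Nd4 and mt-Cytb were −0.074, −0.043 and −0.019 at P14, and mt-Nd1, mt-Co1, mt-Nd5 and mt-Nd6 were 0.16, 0.093, 0.12 and 0.14 at P7. Between the stages on that scale mt-Nd1, mt-Nd2 and mt-Cytb were 0.27, 0.17 and 0.080 in WT, mt-Nd2, mt-Nd4, mt-Nd5 and mt-Cytb were 0.23, 0.10, 0.034 and 0.18 in Tbpl2-/-, and mt-Nd1 was −0.69 in the interaction. That scaling moved the median of all genes to −0.32 at P14, 1.39 at P7, 3.59 and 1.84 between the stages in WT and Tbpl2-/-, and −1.71 in the interaction, and it called 4744, 11506, 17176, 15720 and 10378 genes there. By library size alone the median was 0.48 at P14 and 0.29 at P7, and 61.7% of calls in the interaction and 42.2% between the stages in WT were positive, in place of 48.8% and 53.4%. Upper-quartile factors gave 60.8% in the interaction. Without P7 Tbpl2-/- replicate 2 the interaction had 3265 calls in place of 4954.

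Deviations of libraries of the same number correlated from −0.092 to 0.20 within a stage, and 1 of 6 pairs was above 0.1. Between the stages of a genotype they correlated from −0.034 to 0.23, with 1 of 6 pairs above 0.1. With 3 libraries per group, whether such libraries share a preparation was not tested. With the replicate block the members called were 1, 7, 7, 7 and 5 in the 5 contrasts, mt-Nd5 passing the interaction (adjusted p = 0.0476). Scaled per kb of countable sequence, an alternative chosen after seeing the data, mt-Co1 and mt-Nd4 moved beyond the spread of replicates in all 4 groups. So did mt-Nd2 in P14 Tbpl2-/- and P7 Tbpl2-/-, and mt-Nd5 in P7 Tbpl2-/-. Of 891 counts over the nuclear lists under alternatives, 122 moved by more than 1.5 times.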
